A study of Mus musculus with 5 samples.

Results

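Lysosomal glycosidases, a class of sugar-cleaving enzymes, were described in mouse pluripotent cells through 8 genes: Gusb, Manba, Hexa, Glb1, Gaa, Galc, Man2b1 and Fuca1. They are 8 of 23951 genes in the expression table. They were chosen by name and selected on earlier results of these libraries, namely their FPKM in epiblast stem cells against embryonic stem cells, so the differences between cell types are given as a description and carry no test. RNA was measured in 5 groups of 1 library each, all from cells of the E14 mouse embryonic stem cell line. Embryonic stem cells (ESCs), which stand for the naive state of pluripotency, were kept on gelatin either with leukaemia inhibitory factor (LIF) at 1000 U/ml and serum, or with LIF and bone morphogenetic protein 4 (BMP-4) at 10 ng/ml in a basal medium, so that this pair differs in serum as well as in BMP-4. Epiblast stem cells derived from ESCs (ESD-EpiSCs, here EpiSCs), which stand for the primed state, were kept in N2B27 medium with FGF2 at 12 ng/ml and Activin A at 20 ng/ml on plates coated with serum. They were left untreated, or BMP-4 (10 ng/ml) was added and cells were taken after 1.5 h or after 24 h. No labels give an allele, an age or a further agent, and EpiSCs and ESCs differ in medium and in the presence of LIF as well as in state, which cannot be told apart here.

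Lysosomal glycosidases are acid hydrolases that remove sugars one after another from glycoproteins, glycolipids, glycosaminoglycans and glycogen. They are made in the endoplasmic reticulum, tagged with mannose 6-phosphate in the Golgi and carried to the lysosome, and the inherited loss of one of them leads to storage of its substrate. Many lysosomal genes carry a short element in the promoter that is bound by TFEB and its relatives TFE3 and MITF, which can raise their transcription together. Gusb encodes beta-glucuronidase and is also widely used as a reference gene in PCR assays.

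Values are FPKM, fragments scaled by transcript length and by library size, with the lower and upper 95% limits that the deposited table gives for each value in parentheses. With 1 library a group there is no spread between cultures, so a difference is described by its size and by whether these limits are apart or overlap. A difference is that of log2(FPKM + 1), a scale on which low genes appear to change less than they do, and a gene is called higher or lower when FPKM + 1 is at least 2-fold apart. A gene was compared if it averaged 1 FPKM or more across the libraries, as 11011 did. All 8 genes met this, but Gusb and Manba passed only through the ESC libraries. The depth behind the values is not in the table, and about 8500000 to 13300000 reads a library were estimated from the steps between low values, so these totals are approximate.

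Promoter sequences are shown for the pair of genes with an E-box and for the pair with the largest differences between cell types. All 8 genes were found by symbol in RefSeq's promoter table (GRCm38.p6), and the 250 bases before each start were searched on both strands for CACGTG, the E-box core of the TFEB-type element. CACGTG was found in 2 of the 8, Glb1 and Gaa, which is 25% against 6.02% of all 32851 promoters of the same length. Its first base lay 48 bases before the start in Glb1 and 140 bases before it in Gaa. Both also held the longer TCACGTG, which contains the first motif, and which was present in 3.13% of all promoters. The windows of Gusb, Manba, Hexa, Galc, Man2b1 and Fuca1 did not hold these letters. Sequences run 5′ to 3′ on the strand of the gene and end at the base before the start, and capitals mark CACGTG.
Glb1, chr9:114400828-114401077, plus strand: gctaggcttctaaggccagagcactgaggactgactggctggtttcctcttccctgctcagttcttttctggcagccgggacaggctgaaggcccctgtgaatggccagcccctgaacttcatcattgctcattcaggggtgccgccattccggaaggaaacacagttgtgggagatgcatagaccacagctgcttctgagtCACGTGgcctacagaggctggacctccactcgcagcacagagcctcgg
Gaa, chr11:119267713-119267962, plus strand: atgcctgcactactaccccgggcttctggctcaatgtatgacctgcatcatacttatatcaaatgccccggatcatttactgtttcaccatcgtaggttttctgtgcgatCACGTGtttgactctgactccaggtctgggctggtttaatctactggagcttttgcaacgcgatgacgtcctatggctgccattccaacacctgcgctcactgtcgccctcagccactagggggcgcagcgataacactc
Gusb, chr5:130003050-130003299, minus strand: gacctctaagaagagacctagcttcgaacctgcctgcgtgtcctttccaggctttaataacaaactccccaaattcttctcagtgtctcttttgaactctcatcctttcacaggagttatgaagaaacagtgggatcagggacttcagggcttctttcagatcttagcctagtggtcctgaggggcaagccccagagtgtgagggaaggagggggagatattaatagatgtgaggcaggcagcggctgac
Manba, chr3:135485361-135485610, plus strand: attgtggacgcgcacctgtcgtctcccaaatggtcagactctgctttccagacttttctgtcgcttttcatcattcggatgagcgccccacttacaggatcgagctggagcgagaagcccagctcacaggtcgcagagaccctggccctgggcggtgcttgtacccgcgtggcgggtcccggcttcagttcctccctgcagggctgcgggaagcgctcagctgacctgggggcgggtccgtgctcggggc

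The share of promoters with CACGTG was 23.4% among 47 promoters of other lysosomal hydrolases and their activators. It was 23.5% among 17 of lysosomal membrane proteins and 15.4% among 13 of the V-ATPase, the proton pump that acidifies the lysosome. It was 0% among 8 promoters of glycosidases of the endoplasmic reticulum (ER) and Golgi, which trim glycans during synthesis and not in the lysosome. A match describes these letters in one reference genome and was not measured as a binding site.

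Gusb, beta-glucuronidase, which takes glucuronic acid from the ends of glycosaminoglycan chains, lies on mm9 chromosome 5 from 130464891 to 130478698. Its level was 9.75 FPKM (2.30 to 17.2) in ESCs in LIF and serum and 8.14 (1.64 to 14.6) in ESCs in LIF and BMP-4. It was 0.125 FPKM (0 to 0.394) in untreated EpiSCs, 0.112 (0 to 0.357) after 1.5 h of BMP-4 and 0.0615 (0 to 0.212) after 24 h. Both ESC libraries were high, the 3 EpiSC libraries were near 0, and the limits of the cell types were apart in each pairing. The EpiSC values correspond to about 3, 3 and 2 reads, against about 223 and 195 in the ESCs. The difference of log2(FPKM + 1) between untreated EpiSCs and ESCs in serum was -3.26, and that against ESCs in BMP-4 was -3.02. The ratio of FPKM was 77.8 with serum and 64.9 with BMP-4, and the counting interval of the approximate reads ran from 29.0 to 420 for the first ratio and from 24.1 to 350 for the second. These intervals are exact at 95% only for the rounded read numbers, which are themselves estimates. They belong to ratios of those reads, scaled by depth, of 85.9 with serum and 71.5 with BMP-4. They cover counting error only. Within EpiSCs the order of the levels rests on 2 or 3 reads each and does not separate the libraries.

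Manba, beta-mannosidase, which removes the mannose next to the chitobiose core of N-glycans, lies on mm9 chromosome 3 from 135148575 to 135234367. Its level was 45.0 FPKM (22.1 to 67.8) in ESCs in serum and 127 (73.1 to 181) in ESCs in BMP-4. It was 0.867 FPKM (0 to 2.05) in untreated EpiSCs, 0.970 (0 to 2.33) at 1.5 h and 0.917 (0 to 2.17) at 24 h. The ESC libraries thus differed from each other, with their limits apart, and each lay far above the 3 EpiSC libraries. The difference between untreated EpiSCs and ESCs was -4.62 against serum and -6.10 against BMP-4, or a ratio of FPKM of 51.8 and 147. Counting intervals of these ratios, from about 1404 and 4167 reads in ESCs and 31 in untreated EpiSCs, were 36.7 to 77.3 and 104 to 218. Manba was the highest of the 8 genes in both ESC libraries and the seventh in all 3 EpiSC libraries.

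Hexa encodes the alpha subunit of beta-hexosaminidase A, which degrades the ganglioside GM2, and lies on mm9 chromosome 9 from 59387474 to 59412912. Its level was 17.5 FPKM (4.42 to 30.6) in ESCs in serum and 17.0 (4.37 to 29.6) in ESCs in BMP-4. It was 1.70 FPKM (0 to 4.03) in untreated EpiSCs, 1.78 (0 to 4.22) at 1.5 h and 2.09 (0 to 5.01) at 24 h. The ESC values were alike and above those of all EpiSC libraries. The limits were apart from both ESC libraries in the untreated and 1.5 h EpiSCs and overlapped them at 24 h. The difference between untreated EpiSCs and ESCs was -2.78 against serum and -2.73 against BMP-4, a ratio of FPKM of 10.3 and 9.98. Counting intervals of these ratios were 7.24 to 15.4 and 7.02 to 14.9. A stretch of 255 nt of Hexa is identical to Tmem202, which was listed at 0 in all libraries.

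Glb1, beta-galactosidase, which takes galactose from GM1 ganglioside and keratan sulfate, lies on mm9 chromosome 9 from 114310196 to 114383497. Its level was 16.8 FPKM (2.15 to 31.5) in ESCs in serum and 25.1 (7.88 to 42.4) in ESCs in BMP-4, and 3.54 (0 to 9.14), 2.78 (0 to 6.53) and 2.87 (0 to 7.47) in EpiSCs untreated, at 1.5 h and at 24 h. The point values of the cell types did not mix. The difference between untreated EpiSCs and ESCs was -1.97 against serum and -2.53 against BMP-4, with overlapping limits in both. The limits at 1.5 h and at 24 h were apart from those of ESCs in BMP-4 and overlapped those of ESCs in serum. Counting intervals of the ratio of ESCs to untreated EpiSCs, which cover counting error only, were 3.75 to 6.14 with serum and 5.64 to 9.08 with BMP-4. Tmppe has the same start and end in the file and shares 165 nt with Glb1, so reads could be divided between them, and its own level was 1.51 to 3.61 FPKM over the 5 libraries.

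Gaa, acid alpha-glucosidase, which breaks down glycogen in the lysosome, lies on mm9 chromosome 11 from 119129281 to 119147012. Its level was 12.6 FPKM (4.21 to 20.9) in ESCs in serum and 9.41 (2.67 to 16.1) in ESCs in BMP-4, and 3.39 (0.365 to 6.41), 3.20 (0.313 to 6.08) and 3.91 (0.284 to 7.54) in EpiSCs untreated, at 1.5 h and at 24 h. All EpiSC values were below both ESC values. The difference between untreated EpiSCs and ESCs was -1.63 against serum and -1.25 against BMP-4, a ratio of FPKM of 3.70 and 2.78, with overlapping limits in both. Counting intervals of these ratios, which cover counting error only, were 3.01 to 4.57 and 2.24 to 3.45.

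The other 3 genes stayed within 2-fold in all 6 comparisons between libraries. Galc, galactosylceramidase, which degrades the myelin lipid galactosylceramide, lies on mm9 chromosome 12 from 99440510 to 99497547. Its level was 2.08 FPKM (0 to 4.19) and 2.13 (0 to 4.27) in the ESCs in serum and in BMP-4, and 1.34 (0 to 2.87), 1.54 (0 to 3.24) and 1.80 (0 to 3.84) in the EpiSCs in the order above. A stretch of 326 nt of Galc is identical to Gm47439, a gene that was not analysed here. The limits overlapped throughout, and the difference between untreated EpiSCs and ESCs was -0.39 against serum and -0.42 against BMP-4. Man2b1, lysosomal alpha-mannosidase, lies on mm9 chromosome 8 from 87607168 to 87622638. Its level was 9.41 FPKM (3.10 to 15.7) in ESCs in serum, 14.8 (5.81 to 23.8) in ESCs in BMP-4, and 8.58 (2.68 to 14.5), 9.13 and 9.45 (3.12 to 15.8) in EpiSCs untreated, at 1.5 h and at 24 h. The ESC library with BMP-4 was the highest, and the serum library lay among the EpiSCs. Fuca1, alpha-L-fucosidase, lies on mm9 chromosome 4 from 135476641 to 135496215. Its level was 14.1 FPKM (4.28 to 23.9) in ESCs in serum, 13.8 in ESCs in BMP-4, and 17.1 (5.66 to 28.5), 18.0 and 17.9 in EpiSCs untreated, at 1.5 h and at 24 h. Fuca1 was the single gene of the 8 whose EpiSC values were all above both ESC values, with differences of 0.26 and 0.29 for untreated EpiSCs and overlapping limits.

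**Figure D1:**
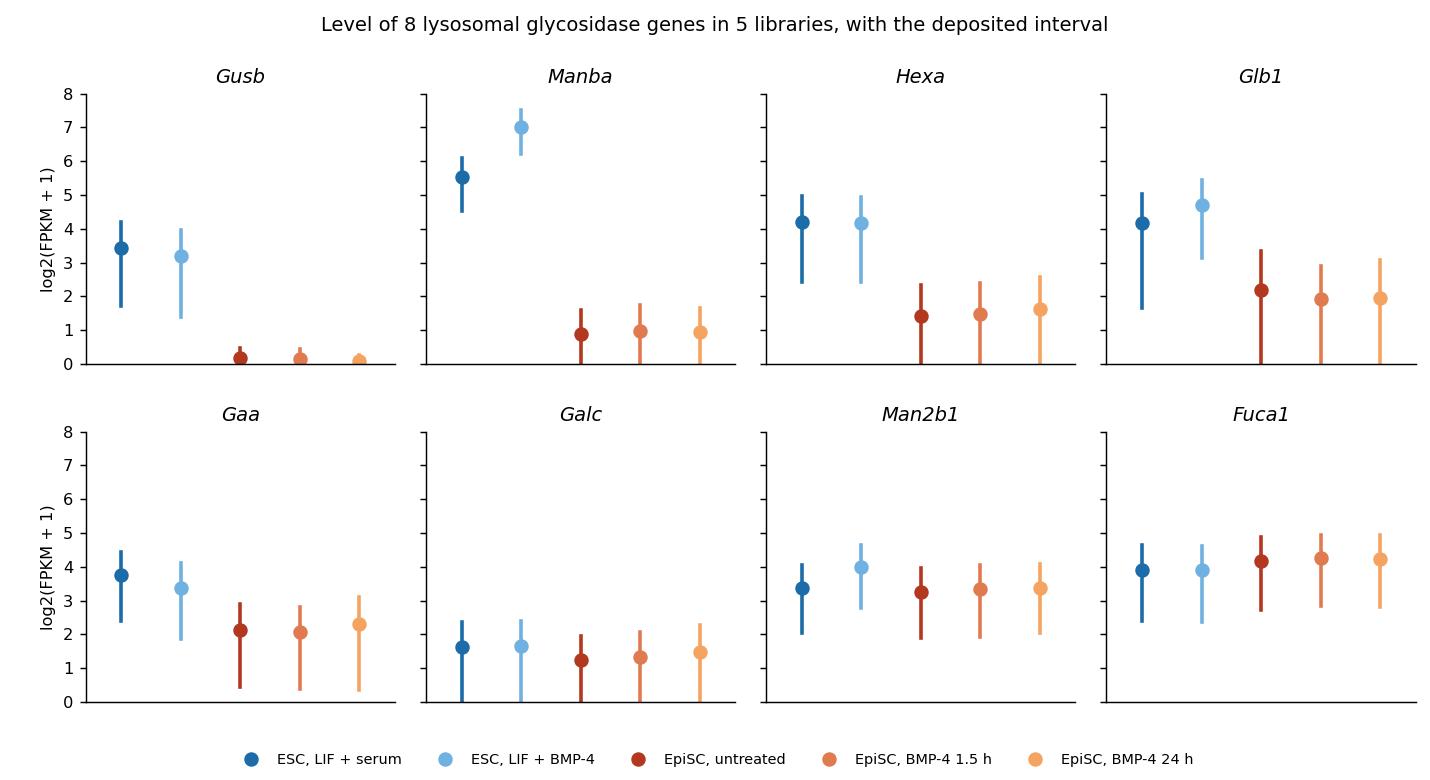
Level of each of the 8 genes in the 5 libraries on the log2(FPKM + 1) axis; points are the deposited values and vertical lines the deposited 95% limits, with 1 library a group. Gusb and Manba are close to 0 in the 3 EpiSC libraries, Hexa, Glb1 and Gaa are lower there than in ESCs, and Galc, Man2b1 and Fuca1 lie at similar heights in both cell types.

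Between untreated EpiSCs and ESCs in serum, 5 of the 8 genes were called lower, against 9.55% of all genes compared, and 0 were called higher, against 11.6%. Limits were apart as well for 3 of the 8, against 2.84% of all genes. Against ESCs in BMP-4, 5 were again lower (background 10%), 0 were higher (background 11%) and 3 were lower with limits apart (background 3.11%). Each EpiSC library was at least 2-fold below either ESC library for 5 of the 8, namely Gusb, Manba, Hexa, Glb1 and Gaa, against 6.62% of genes, and at least 2-fold above for 0, against 7.21%. Since this contrast was known when the genes were listed, nothing is read from these counts. The median difference over the 8 was -1.80 against serum and -1.89 against BMP-4, beside -0.015 and 0.0046 over all genes. In the comparison with serum, Gaa at -1.63 was the called gene nearest to the 2-fold threshold and Galc at -0.39 the nearest gene that was not called. The comparisons with serum and with BMP-4 share the untreated EpiSC library.

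The order of the levels differed between the cell types. In ESCs in serum it ran from Manba through Hexa, Glb1, Fuca1, Gaa, Gusb and Man2b1 to Galc, and in untreated EpiSCs from Fuca1 through Man2b1, Glb1, Gaa, Hexa, Galc and Manba to Gusb. The summed level of the 8 was 127 FPKM in ESCs in serum and 218 in ESCs in BMP-4, and 36.6, 37.5 and 39.0 in EpiSCs untreated, at 1.5 h and at 24 h. Manba made up 35.3% and 58.4% of the ESC sums and 2.37%, 2.59% and 2.35% of the EpiSC sums. Fuca1 made up 11.1% and 6.36% of the ESC sums and 46.6%, 48.0% and 45.9% of the EpiSC sums. FPKM are per length of transcript, so levels of different genes can be set side by side, but the limits of single values are wide.

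Between the ESC libraries, Manba was the single gene of the 8 that was called, 2.79-fold higher on the FPKM + 1 scale with BMP-4 than with serum (difference 1.48). At least 2-fold higher values were found for 2.61% of all genes and, with limits apart as for Manba, for 0.163%. None of the 8 was lower, against 1.28% of all genes. Man2b1 and Glb1 were 0.60 and 0.55 higher on the log2 scale with BMP-4, Gaa and Gusb were -0.38 and -0.23 apart, and Hexa, Galc and Fuca1 were within 0.05, all with overlapping limits. The libraries differ in BMP-4, serum and medium together, so the difference in Manba cannot be assigned to BMP-4.

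Within EpiSCs the number of the 8 genes called after BMP-4 was 0 of 8 at 1.5 h, against 0.418% of all genes in either direction, 0 of 8 at 24 h, against 1.18%, and 0 of 8 between 24 h and 1.5 h, against 1.04%. These counts are near the background, so nothing is read from them about the 8 genes. Gusb and Manba were below 1 FPKM in untreated EpiSCs and could not be called 2-fold lower on the FPKM + 1 scale. The FPKM of Gusb in untreated EpiSCs was 2.04 times that at 24 h, from about 3 and 2 reads, with a counting interval of 0.234 to 24.4. The widest range over the 3 EpiSC libraries was 0.26 on the log2 scale, for Glb1. All limits overlapped. Manba, 1.48 higher in ESCs with BMP-4 than with serum, was 0.867, 0.970 and 0.917 FPKM in EpiSCs without BMP-4, at 1.5 h and at 24 h. At 31, 39 and 45 reads, a difference in Manba between the EpiSC libraries smaller than the counting interval of their ratio could not be detected: untreated over 24 h was 0.937 (0.573 to 1.51).

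**Figure D2:**
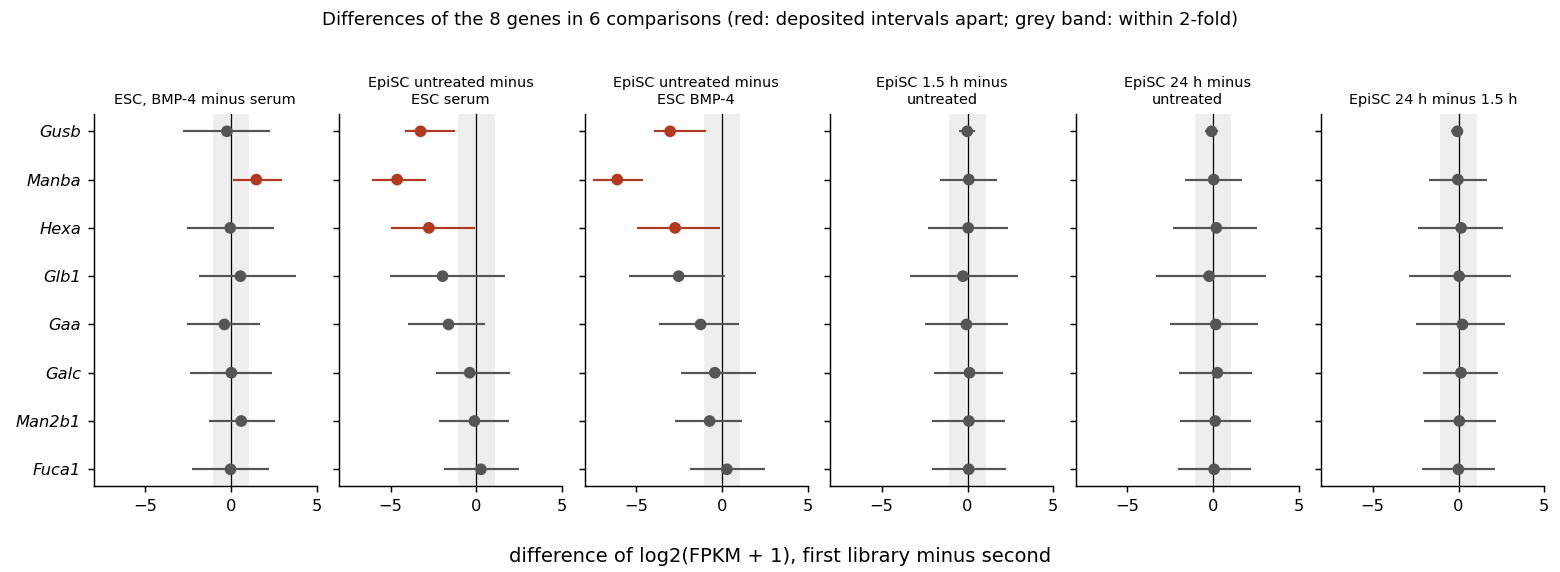
Difference of log2(FPKM + 1), first library minus second, for the 8 genes in the 6 comparisons; points are differences, lines span the bounds that the deposited limits allow, red marks limits apart and the grey band is within 2-fold. Gusb, Manba and Hexa are red and on the left in both EpiSC comparisons with ESCs, Manba alone is red between the ESC libraries, and the points lie near 0 in the 3 comparisons within EpiSCs.

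The other glycosidases of the lysosome did not share one direction. Of 14 listed, 10 were compared, and between untreated EpiSCs and ESCs in serum 1 was lower, 0 were higher and 9 lay within 2-fold, with a median difference of -0.0036. Of all genes compared, 9.55% were lower and 11.6% higher. The lower one of the 10 was Aga, which splits the amide bond between asparagine and the glycan on glycoproteins. It is listed here for its substrate and is not a glycosidase in the strict sense. Aga was 16.1 FPKM (3.00 to 29.1) and 12.7 (1.44 to 23.9) in the ESCs in serum and in BMP-4, 0.0893 (0 to 0.387) and 0.0799 (0 to 0.376) in EpiSCs untreated and at 1.5 h, and listed at 0 at 24 h. Its differences of -3.97 and -3.65 had limits apart, as for Gusb, Manba and Hexa.

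Partners of the 8 enzymes were looked at by role. Ctsa encodes the protease that holds beta-galactosidase and the sialidase Neu1 in one complex. Ctsa was 14.3 FPKM (3.21 to 25.4) and 13.1 (2.50 to 23.7) in ESCs in serum and in BMP-4 and 3.98 (0 to 8.42), 4.24 and 4.15 in EpiSCs, so it was lower like Glb1 (-1.62 against serum and -1.50 against BMP-4, limits overlapping). Neu1 was 2.23 and 3.80 FPKM in the ESCs and 3.84, 3.62 and 3.79 in the EpiSCs. Gm2a, the activator that presents GM2 to hexosaminidase A, was 2.04 and 6.08 FPKM in the ESCs and 2.67, 2.45 and 2.24 in the EpiSCs. Psap, the precursor of the saposins that assist Galc among others, was 58.9 and 69.1 FPKM in the ESCs and 64.8, 63.8 and 68.3 in the EpiSCs.

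Over all 48 lysosomal hydrolases and their activators outside the 8 genes, 38 could be compared between untreated EpiSCs and ESCs in serum, and 6 were lower, 4 were higher and 28 were within 2-fold, with a median of -0.0036. Against ESCs in BMP-4, 8 were lower and 2 higher, with a median of -0.16. Of all genes compared, 9.55% were lower and 11.6% higher against serum, and 10% and 11% against BMP-4. The proteases held 5 lower genes of 12 compared with serum, namely Scpep1, Ctsa, Dpp7, Ctsf and Ctsc, and 1 higher gene, Prcp, with a median of -0.69. Scpep1, a serine carboxypeptidase, was the one protease with limits apart, and against serum they only just were, at 73.7 FPKM (35.3 to 112) and 82.9 (41.0 to 125) in ESCs and 21.1 (6.97 to 35.3), 19.2 and 19.5 in EpiSCs. Ctsd, the main aspartic protease of the lysosome, was 113 and 112 FPKM in ESCs and 103, 99.1 and 119 in EpiSCs. Among 5 genes of the sulfatase list 1 was higher, Arsa, and the 5 include Sumf1, which encodes an activator of sulfatases and not a sulfatase. Among 8 lipid enzymes and activators 2 were higher, the acid lipase Lipa and the sphingomyelinase Smpd1. Lipa was 1.26 and 0.861 FPKM in the ESCs and 4.93, 4.90 and 5.18 in the EpiSCs, with overlapping limits. Of 3 phosphatases and acetyltransferase genes 0 were called against serum and Acp5 was lower against BMP-4.

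Structural parts of the lysosome, the route to it and related lists were counted in the same way between untreated EpiSCs and ESCs in serum. Of all genes compared, 9.55% were lower and 11.6% higher, and nothing is read from counts in lists this small. Among 15 membrane proteins 1 was lower, Laptm4b, and 1 higher, Ostm1 (median -0.11), and the major membrane protein Lamp1 was 217 and 142 FPKM in ESCs and 126, 114 and 128 in EpiSCs. Among 16 genes of the V-ATPase 1 was lower, Atp6v1h, and 0 were higher (median 0.015). Among 6 genes of the mannose 6-phosphate route 1 was higher, Sort1, a sorting receptor, at 3.59 and 5.32 FPKM in ESCs and 12.6, 12.1 and 12.8 in EpiSCs (median 0.043). Gnptab, which encodes the enzyme that starts the tag, was 9.67 and 7.94 FPKM in ESCs and 8.87, 8.75 and 8.75 in EpiSCs. Of 12 autophagy genes 2 were lower, Gabarapl2 and Ulk1, and 1 was higher, Gabarapl1 (median -0.033). Among 10 glycosidases of the ER and Golgi 0 were lower and 3 were higher, Man1a, Manea and Mogs, with a median of 0.64. Manea, an endomannosidase of the Golgi, was 2.31 and 2.24 FPKM in ESCs and 7.42, 6.90 and 7.89 in EpiSCs.

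**Figure D3:**
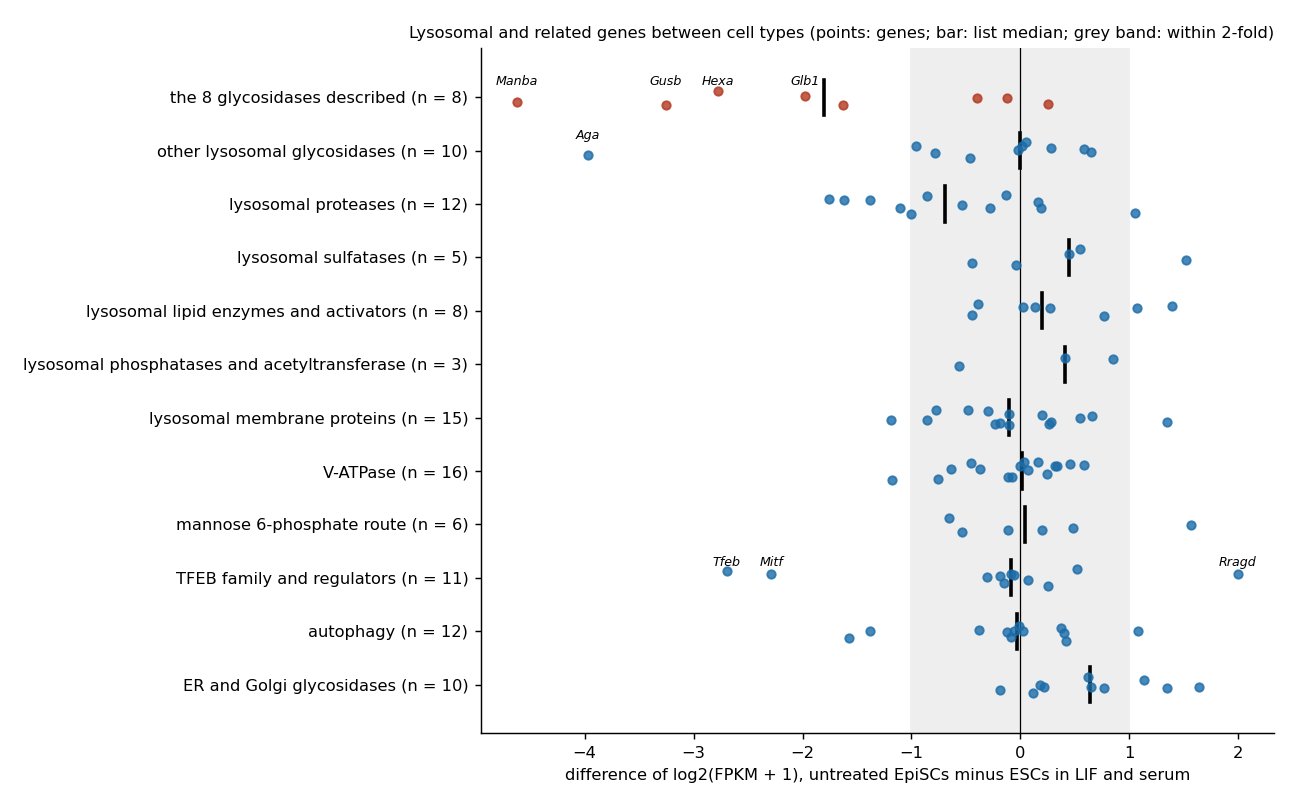
Difference of log2(FPKM + 1), untreated EpiSCs minus ESCs in LIF and serum, for each compared gene of 12 lists (points, spread vertically for legibility), with the list's median as a bar and the 2-fold range in grey. The 8 glycosidases have a median of -1.80, while the 10 genes listed as other lysosomal glycosidases, Aga among them, have a median of -0.0036 with Aga far to the left. The medians of the other lists run from -0.69 (proteases) to 0.64 (ER and Golgi glycosidases).

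Genes of the TFEB family, whose proteins bind the promoter element described above, differed among themselves. Tfeb was 17.5 FPKM (5.65 to 29.4) in ESCs in serum and 22.6 (8.17 to 37.1) in ESCs in BMP-4, and 1.86 (0 to 4.07), 1.98 (0 to 4.30) and 1.43 (0 to 3.50) in EpiSCs untreated, at 1.5 h and at 24 h. Mitf was 5.98 FPKM (1.39 to 10.6) and 12.0 (4.32 to 19.6) in the same ESC libraries and 0.430 (0 to 1.03), 0.270 (0 to 0.673) and 0.399 (0 to 0.955) in the EpiSCs. Both were high in ESCs and low in EpiSCs, with limits apart, and differences for untreated EpiSCs of -2.70 and -3.05 for Tfeb and -2.29 and -3.18 for Mitf against serum and BMP-4. Tfe3 was 11.4 FPKM (2.50 to 20.2) and 11.6 (3.47 to 19.7) in ESCs and 16.8 (5.28 to 28.3), 17.4 and 17.0 in EpiSCs, with overlapping limits, and Tfec was listed at 0 in all libraries. Of the list of 12 genes of the family and its regulators, 11 were compared, and beside Tfeb and Mitf, 1 was called higher against serum. It was Rragd, a Rag GTPase gene that acts upstream of the family, at 3.72 (0.740 to 6.71) and 9.65 (3.29 to 16.0) FPKM in ESCs and 17.9 (7.75 to 28.0), 20.2 and 17.4 in EpiSCs. Of the 5 glycosidases lower in EpiSCs, Glb1 and Gaa held CACGTG in the window before the start, and Gusb, Manba and Hexa did not. Only exact letters in that window were searched, so other forms or places of the element were not covered. Whether proteins of the TFEB family had a part in the differences was not tested. RNA levels do not report where these proteins are in the cell or whether they are active.

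Gusb was set beside 11 other genes in common use as references for PCR. Its range over the 5 libraries was 3.34 on the log2 scale, the widest of the 12. B2m followed with 2.57 (4.30 to 30.6 FPKM) and Pgk1 with 1.17 (287 to 646 FPKM), and the other 9 stayed within 2-fold. These were Tbp (0.75), Tfrc (0.64), Hprt (0.51), Rpl13a (0.34), Ywhaz (0.27), Actb, Sdha and Gapdh (each 0.19) and Ppia (0.15). Limits of Gusb were apart between untreated EpiSCs and both ESC libraries. Those of B2m and Pgk1 overlapped there and between the ESC libraries. Hprt was 0.303 to 0.857 FPKM in all libraries and so gives little signal to compare. Below 1 FPKM throughout, it could not pass 2-fold on the FPKM + 1 scale, so its place among the 9 says nothing about its stability.

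**Figure D4:**
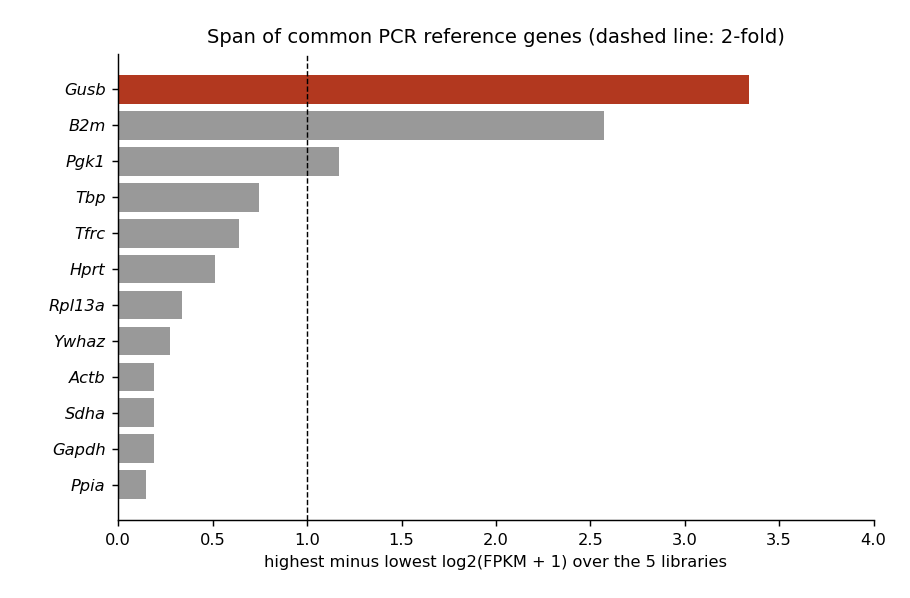
Highest minus lowest log2(FPKM + 1) over the 5 libraries for 12 genes used as PCR references, with Gusb in red and 2-fold as a dashed line. Gusb has the longest bar at 3.34, B2m and Pgk1 also pass 2-fold, and 9 genes do not. Of the 9, Hprt was below 1 FPKM in all libraries and could not pass 2-fold on this scale.

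Neighbouring genes were read from the table to place the differences on the chromosome. The nearest compared genes were Vkorc1l1 and Asl beside Gusb, and Ube2d3 and Nfkb1 beside Manba. Vkorc1l1 was 19.4 and 21.3 FPKM in ESCs and 19.6, 18.1 and 18.5 in EpiSCs, and Asl, a urea cycle enzyme, was 11.4 and 17.8 in ESCs and 26.6, 25.4 and 24.2 in EpiSCs. Ube2d3 was 103 and 91.2 FPKM in ESCs and 74.7, 72.0 and 67.2 in EpiSCs, and Nfkb1 was 14.0 and 6.32 in ESCs and 7.54, 9.44 and 9.03 in EpiSCs. Slc9b1, named after its values were seen, lies 87783 bases from Manba, beyond Ube2d3, and was 21.5 and 22.1 FPKM in ESCs and 0.0461, 0.0826 and 0.0339 in EpiSCs. Slc39a8, a metal ion transporter gene also named after its values were seen, lies 253875 bases from Manba and was 0.171 and 0.155 FPKM in ESCs and 35.2, 39.3 and 27.6 in EpiSCs. Near Glb1, Crtap, which encodes a collagen-modifying protein, was 55.7 and 56.0 FPKM in ESCs and 12.5, 11.2 and 12.1 in EpiSCs, and Trim71 was 21.6 and 19.2 in ESCs and 14.0, 15.5 and 16.9 in EpiSCs. The neighbours of Hexa (Arih1, Parp6), Gaa (Ccdc40, Eif4a3), Galc (Sel1l, Spata7), Man2b1 (Wdr83os, Zfp791) and, on one side, Fuca1 (Pnrc2) were within 2-fold in every comparison.

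The genes with profiles most like those of Gusb and Manba were found by the Euclidean distance between mean-centred log2(FPKM + 1) values over the 5 libraries, among genes that averaged 5 FPKM or more. For Gusb, out of 7329 candidates, these were Dlc1 (distance 0.14), Mybl2 (0.15), Ddx58 (0.17), Adap1 (0.21) and Pura (0.25). Dlc1 was 38.7 and 34.4 FPKM in ESCs and 3.21, 3.03 and 2.62 in EpiSCs. For Manba, out of 7328 candidates, they were Calcoco2 (0.31), Fbxo15 (0.43), Hsf2bp (0.61), Morc1 (0.62) and Psma8 (0.63). Calcoco2 was 27.5 and 91.2 FPKM in ESCs and 0.0516, 0.0924 and 0.114 in EpiSCs. The 5 libraries of 2 cell types fix such a ranking only coarsely. Likeness here also depends on the 1 added to FPKM, since Gusb and Manba were below 1 FPKM in EpiSCs. Gusb went from 9.75 FPKM in ESCs in serum to 0.125 in untreated EpiSCs, and Dlc1 from 38.7 to 3.21. Their ratios of FPKM therefore differ, and the ranking was not recomputed with another pseudocount.

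The cell identity of the libraries was checked against marker lists. The summed level of 7 naive markers (Zfp42, Esrrb, Klf2, Klf4, Tfcp2l1, Nr0b1 and Tbx3) was 1790 and 1552 FPKM in ESCs and 3.96 to 5.77 in EpiSCs, with Nr0b1 listed at 0 in all 3 EpiSC libraries. That of 7 primed markers, such as Fgf5 and Otx2, was 63.1 and 71.6 FPKM in ESCs and 481 to 698 in EpiSCs. Dnmt3b made up 403 of the 698 FPKM in untreated EpiSCs. All 7 primed markers were at least 2-fold higher in untreated EpiSCs than in either ESC library. In each EpiSC library this held for 5 of the 7, without Otx2 and Sox3. At 24 h Otx2, Fgf5 and Sox3 were at least 2-fold lower than in untreated EpiSCs. Both labels fit their markers, with this limit for the primed markers at 24 h. Macrophages are rich in lysosomal hydrolases, and 5 macrophage markers summed to 3.04 and 7.50 FPKM in ESCs and to 0.277 to 0.961 in EpiSCs. In ESCs all of it was Cd68, itself a lysosomal membrane protein, while Lyz2 and Aif1 were listed at 0 in all 5 libraries. Markers of primitive endoderm summed to 1.72 and 1.46 FPKM in ESCs and 9.52 to 22.5 in EpiSCs, with 7 of 7 and 1 to 3 of 7 under 1 FPKM, and with Sox7 listed at 0 in the untreated and 24 h EpiSCs. Markers of neural cells summed to 77.6 and 45.2 FPKM in ESCs and 17.3 to 25.3 in EpiSCs, of which Tubb3 was most, and fibroblast markers summed to 2.70 to 5.94 FPKM, with Dcn listed at 0 in all libraries. Endoderm and neural markers differ between the cell types along with the glycosidases, and their part in the differences was not tested. In bulk RNA, fewer cells that express a gene and less RNA per cell cannot be told apart.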

How the data were processed

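RNA was measured in 5 libraries, 1 per group, grouped by GEO's labels. Per the labels' protocols, directional libraries were built from oligo-dT purified RNA using a kit meant for small RNAs. The deposited FPKM per gene, with lower and upper limits and a status per the file headers, are the authors' output of TopHat and Cufflinks (mm9), and Picard and SAMtools were used too, per the submitters' processing notes. Cufflinks defines its limits at 95%. Neither annotation nor scaling between libraries is given in the sources used here. A status other than OK occurred for 8 genes, which were left out where it applied, and none of the 8 glycosidases was among them. File starts count from 0 and are written from 1 here. Differences of log2(FPKM + 1) were computed for genes averaging 1 FPKM or more, and 2-fold was called. FPKM are no counts and each group held 1 library, so no test was run and no p-value is given. The glycosidases, 19 further gene lists and the rules for named genes were chosen with earlier results of these data known. Named are all 8 glycosidases, up to 4 highest and 4 lowest genes of a list, the nearest genes on either side, the 5 closest profiles for Gusb and Manba (small RNAs and predicted genes left out) and the reference genes. Some genes these rules would name are not reported here. Partner genes (Neu1, Gm2a, Psap), Ctsd, Lamp1 and Gnptab were added for their role, after values were seen. Approximate reads used the longest GENCODE M21 transcript and the depth estimated from value steps. Shared sequence was found with BLAST 2.17.0 (identity of at least 95% over at least 50 nt). Python 3.11.15, pandas 2.3.3, numpy 2.4.6 and SciPy 1.17.1 were used, and the calls were tested on simulated data. Alternatives were a pseudocount of 0.1, a mean of at least 5 FPKM, no filter and median ratio scaling.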

Additional observations from a re-analysis of the deposited data

How the results depend on the processing

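No paired analysis was possible because no group had a second library, and likewise no replicate could be left out. The counts of glycosidases called lower or higher kept their direction and stayed within 1.5 times in all 56 recomputed values, and of 96 recomputed differences of single genes 93 moved by less than the deposited limits allow. The 3 that moved were those of Gusb with a pseudocount of 0.1: -5.45 for untreated EpiSCs against ESCs in serum, -5.19 against ESCs in BMP-4 and -0.48 for 24 h against untreated EpiSCs. Gusb is near 0 in EpiSCs, where the pseudocount sets the size of a difference. No difference changed its sign, and scaling moved the median of all genes by at most 0.0038. Much of this stability was fixed in advance. All the glycosidases already passed the filter, so their counts without it could not change. The scaling factors were 1.003 to 1.007, so scaling could hardly move any value. Many of the counts were 0 from the start. The number of all genes called depended more on these choices. With a pseudocount of 0.1, higher and lower genes numbered 600 and 280 in place of 287 and 141 between the ESC libraries, 69 and 59 in place of 26 and 20 at 1.5 h, 165 and 131 in place of 72 and 58 at 24 h, and 130 and 108 in place of 67 and 47 between 24 h and 1.5 h. With a mean of at least 5 FPKM, under which Gusb and Galc are no longer compared and 4 glycosidases in place of 5 are lower in EpiSCs, they numbered 151 and 91 between the ESC libraries, 709 and 614 in place of 1272 and 1051 for untreated EpiSCs against serum, 675 and 624 in place of 1209 and 1104 against BMP-4, 18 and 12 at 1.5 h, 34 and 33 at 24 h, and 36 and 31 between 24 h and 1.5 h.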
